A study of Mus musculus with 8 samples.

Results

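Voltage-gated sodium and calcium channels were taken as the genes of the deposited table whose symbol begins with Scn and a digit, or with Cacna, Cacnb or Cacng and a digit. The rule found 40 of the 23038 genes in the table, and 19 of them reached a mean of 1 RPKM (reads scaled by gene length and by the library's counted reads) in at least 1 group and are called on here. The RNA came from CAD cells (Cath.a differentiated), a mouse catecholaminergic neuronal line, used for all libraries in its undifferentiated state, in medium with 8% fetal bovine serum. The 4 PFN1_KO libraries are labelled as CRISPR/Cas9 cells with a targeted Pfn1 gene, which encodes profilin 1, a protein that binds actin. For the 4 control libraries the title says wild type and the genotype entry says Control KO, with nothing on what that control received. Replicates are called biological, with no word on whether they were grown or cloned separately, so each p-value refers to the spread among these libraries, which may be partly technical.

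A voltage-gated sodium channel is built on 1 large pore-forming alpha chain (Scn genes ending in a) and small beta chains that tune its gating and bind other cells. Calcium channel pores (Cacna1 genes) fall into the high-voltage L, P/Q, N and R types, which need beta and alpha2delta subunits to reach the membrane, and the low-voltage T type, which can work without them. Most Cacng genes encode TARPs, transmembrane proteins that traffic and tune AMPA-type glutamate receptors and are named after the skeletal muscle calcium channel subunit that Cacng1 encodes. In noradrenergic neurons and chromaffin-like cells the sodium channels carry the action potential, and N- and L-type channels let in the calcium that triggers transmitter release.

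In PFN1_KO libraries 6 of the 9 pore genes that were on were called higher and 2 lower, whereas 6 of the 10 accessory subunit and TARP genes that were on were called lower and 0 higher (limma, Benjamini-Hochberg adjusted p under 0.05 over all 11465 genes tested). Of the accessory genes, 0 were higher at an unadjusted p under 0.05 as well, and the 4 that were not called were Cacnb1, Cacna2d2, Cacng2 and Cacng8. The background is high: 45.9% of all genes tested were called, 30.4% higher and 15.5% lower. PFN1_KO and control values were fully separate in 14 of the 19 channel genes, against 41.4% of all genes tested. When libraries were rescaled by median of ratios, 24.0% of all genes tested were called higher and 23.7% lower, and of the channel genes 6 were called higher and 9 lower. Of the 19 genes, 3 (Cacna1g, Cacng2 and Scn3a) reached 1 RPKM in only 1 group, so they had to differ in mean and the counts are a description. Each library is RNA of many cells, so fewer cells with a transcript and less transcript per cell cannot be told apart. The median log2 fold change was 0.31 over the pore genes that were on and -0.23 over the accessory genes that were on, beside 0.06 over all genes tested. Fold changes called log2 are of RPKM + 1, PFN1_KO over control, and understate the change of low genes; other folds are ratios of mean RPKM.

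The libraries held an estimated 28600000 to 33000000 reads (PFN1_KO) and 26200000 to 34500000 reads (control). Pfn1 stood at 139 ± 10.8 RPKM in PFN1_KO libraries and 423 ± 16.4 RPKM in control libraries (SD, n = 4 each), 32.9% of control. Of the 10 catecholaminergic marker genes 9 were on, with Ddc below 1 RPKM, and of the 7 neuronal ones 7 were on. The catecholaminergic genes summed to 766 to 827 RPKM in PFN1_KO and 586 to 655 RPKM in control libraries, of which Chgb alone averaged 347 RPKM in PFN1_KO and 162 RPKM in control libraries. Without Chgb the sums overlapped, at 431 to 468 RPKM in PFN1_KO and 453 to 476 RPKM in control libraries. The catecholamine synthesis genes Dbh (10.4 RPKM in PFN1_KO and 31.7 RPKM in control libraries) and Th (0.773 RPKM in PFN1_KO and 2.25 RPKM in control libraries) had the lower means in PFN1_KO libraries. The neuronal genes summed to 742 to 772 RPKM in PFN1_KO and 669 to 702 RPKM in control libraries, and the part of these marker differences in the channel results was not tested. Glial, muscle, fibroblast and endothelial markers summed to at most 3.57 RPKM in any library for each list, with Dcn and Pecam1 among the few of these genes at 1 RPKM or more. PFN1_KO library 1 and control library 4 lay apart from the rest of their groups on the second principal component (14% of the variance), and results without them are given below.

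Promoter sequences were looked up for the 19 genes that were on, and RefSeq (GRCm38.p6) gave a window from 250 bases before to 50 bases after the annotated start for 13 of them. The windows of the pore genes with the largest log2 fold changes are shown because they belong to genes that rose together and differ plainly in base composition. Capitals mark the GC box GGGCGG and the CRE core TGACG, on either strand. The Cacna1i window lies at chr15:80286988-80287287 on the plus strand, that of Cacna1b at chr2:24763103-24763402 on the minus strand and that of Scn9a at chr2:66634913-66635212 on the minus strand.
Cacna1i: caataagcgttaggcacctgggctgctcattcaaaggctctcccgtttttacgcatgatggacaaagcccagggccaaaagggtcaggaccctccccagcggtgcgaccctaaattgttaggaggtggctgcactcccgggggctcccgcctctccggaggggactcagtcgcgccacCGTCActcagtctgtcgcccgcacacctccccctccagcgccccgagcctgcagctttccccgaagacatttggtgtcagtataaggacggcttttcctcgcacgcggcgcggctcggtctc
Cacna1b: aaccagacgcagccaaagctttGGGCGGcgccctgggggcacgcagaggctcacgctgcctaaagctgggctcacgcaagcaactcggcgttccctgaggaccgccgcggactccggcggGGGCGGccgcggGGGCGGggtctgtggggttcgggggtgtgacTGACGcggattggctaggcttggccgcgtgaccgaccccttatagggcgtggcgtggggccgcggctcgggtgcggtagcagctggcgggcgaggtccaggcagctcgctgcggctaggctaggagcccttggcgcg
Scn9a: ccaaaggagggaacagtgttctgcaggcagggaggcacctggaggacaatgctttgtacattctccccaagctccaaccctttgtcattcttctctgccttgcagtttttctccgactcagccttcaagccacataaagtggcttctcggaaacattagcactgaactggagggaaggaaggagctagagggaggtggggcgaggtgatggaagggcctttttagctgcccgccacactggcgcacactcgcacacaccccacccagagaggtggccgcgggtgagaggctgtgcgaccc
The Cacna1b window had 72.3% G and C with 35 CpG dinucleotides, 3 GC boxes and 1 CRE core. The Cacna1i window had 62.7% G and C with 23 CpG dinucleotides and 1 CRE core, and the Scn9a window 57.3% with 9 CpG dinucleotides and neither motif. The median window of all 27025 promoters had 52.7% G and C and 7 CpG dinucleotides. The GC box was in 5 of the 13 windows and in 35.9% of all promoters, and the CRE core was in 3 of 13 and in 21.0%. Of the other motifs searched on both strands, the sequence GGACAG was in 3 of 13 windows and in 22.1% of all promoters. None of these 13 windows held the TATA box TATAAA (in 14.2% of all promoters), the E box written CACGTG (7.24%), the left part of the RE1 element, which reads TCAGCACC (1.59%), or the CArG box of serum response factor (1.57%). Overlapping matches of a motif were each counted, and whether CAD cells start transcription at these annotated starts was not tested.

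The sodium channel pores that were on were Scn9a, Scn8a, Scn2a1 and Scn3a, in this order of level in both groups. Scn9a (gene ID 20274), whose channel sets the firing threshold of peripheral sensory and sympathetic neurons, was the leading one. It had 23.1, 28.4, 28.3 and 27.2 RPKM in PFN1_KO libraries 1 to 4, against 14.2, 15.3, 14.3 and 17.6 RPKM in control libraries 1 to 4. All PFN1_KO libraries lay above all control libraries, PFN1_KO library 1 being the lowest of its group and control library 4 the highest of its own. The means were 26.7 ± 2.49 RPKM in PFN1_KO and 15.3 ± 1.59 RPKM in control libraries (SD, n = 4 each), a 1.74-fold increase (log2 fold change 0.76, SE 0.08, adjusted p = 1.78e-05, limma).

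Gm13629, a long noncoding RNA gene whose RefSeq span overlaps that of Scn9a, rose as well. It stood at 9.71 ± 0.767 RPKM in PFN1_KO and 5.17 ± 0.365 RPKM in control libraries (SD, n = 4 each; log2 fold change 0.79, adjusted p = 4.4e-06, limma). The use of strand in counting is not given in the sources used here, so reads of the overlapping stretch cannot be assigned to Scn9a or Gm13629 with certainty.

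Scn8a (gene ID 20273), the channel of the axon initial segment and nodes, had 5.27, 6.23, 6.15 and 5.78 RPKM in PFN1_KO libraries 1 to 4, against 4.61, 4.51, 4.85 and 5.30 RPKM in control libraries 1 to 4. The groups overlapped, since PFN1_KO library 1 lay just under control library 4. The increase was 1.22-fold and was called (log2 fold change 0.24, SE 0.07, adjusted p = 0.0117, limma).

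Scn2a1 (gene ID 110876; Scn2a in RefSeq), a channel of unmyelinated axons and immature initial segments, had 2.32, 2.95, 3.43 and 2.73 RPKM in PFN1_KO libraries 1 to 4, against 1.456, 1.503, 1.495 and 2.01 RPKM in control libraries 1 to 4. The groups did not overlap, although control library 4 stood well above its group. The increase was 1.77-fold (log2 fold change 0.56, SE 0.10, adjusted p = 0.000731, limma). Scn3a (gene ID 20269), a channel of embryonic neurons, averaged 1.03 ± 0.197 RPKM in PFN1_KO and 0.728 ± 0.122 RPKM in control libraries (SD, n = 4 each). Its groups overlapped and it missed the threshold (log2 fold change 0.23, adjusted p = 0.0509, limma). It passed without control library 4 (adjusted p = 0.0242), without PFN1_KO library 1 (adjusted p = 0.0222) or without both (adjusted p = 0.00752, limma). It also passed with the filter at 0.5 RPKM (adjusted p = 0.0472) and without a variance trend (adjusted p = 0.0324, limma). In 11 of its 16 settings Scn3a stayed uncalled, and in the main fit it was tested only through its PFN1_KO mean.

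Summed over the 10 sodium channel pore genes, the level was 32.1, 39.3, 39.9 and 37.3 RPKM in PFN1_KO libraries 1 to 4, against 21.6, 22.8, 21.9 and 26.6 RPKM in control libraries 1 to 4. Scn9a made up 72.0 ± 0.813% of this sum in PFN1_KO and 66.0 ± 0.844% in control libraries (SD, n = 4 each). Scn8a made up 15.8 ± 0.469% in PFN1_KO and 20.8 ± 1.15% in control libraries, so its share was the smaller one in PFN1_KO libraries although its level was higher.

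The sodium channel pores that were off included Scn1a, Scn7a, Scn4a, Scn10a and Scn11a. Scn1a, the main channel of fast-spiking interneurons, was at 0.205 RPKM in PFN1_KO and 0.136 RPKM in control libraries. Scn7a, Scn4a (the skeletal muscle channel), and the nociceptor genes Scn10a and Scn11a averaged at most 0.0768 RPKM in either group. Scn10a was listed at 0 in all 4 control libraries and in 1 PFN1_KO library.

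**Figure D1:**
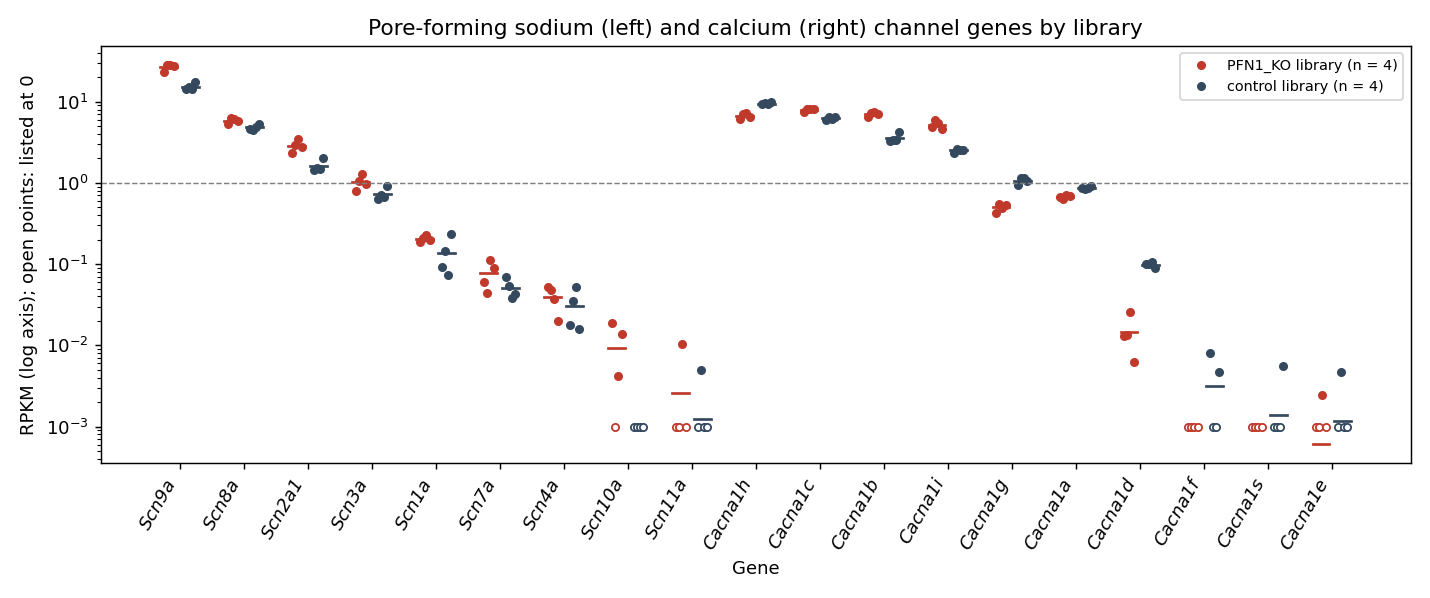
RPKM of 19 pore-forming genes in each library on a log axis, sodium channels on the left and calcium channels on the right, PFN1_KO (red) left of control (dark) for each gene. Points are libraries, short lines are group means, open points at the bottom are values listed at 0, and the dashed line is 1 RPKM. Of the sodium channel genes 4 have a group mean of at least 1 RPKM, led by Scn9a, and of the calcium channel genes 5.

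The calcium channel pores that were on were of the T type (Cacna1h, Cacna1i and Cacna1g), the L type (Cacna1c) and the N type (Cacna1b). The T-type genes changed in opposite directions. Cacna1i (gene ID 239556), a T-type pore with slow gating, had 4.85, 5.91, 5.48 and 4.66 RPKM in PFN1_KO libraries 1 to 4, against 2.33, 2.58, 2.57 and 2.56 RPKM in control libraries 1 to 4. The groups stood well apart, with every PFN1_KO library above every control library. The increase was 2.08-fold (log2 fold change 0.82, SE 0.07, adjusted p = 6.11e-06, limma), the largest increase in mean RPKM, as a fold, among the 19 channel genes that were on.

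Cacna1h (gene ID 58226), the T-type pore that chromaffin cells and sensory neurons use, fell. It had 6.04, 7.12, 7.23 and 6.54 RPKM in PFN1_KO libraries 1 to 4, against 9.23, 9.49, 9.41 and 9.82 RPKM in control libraries 1 to 4. The groups did not overlap, and PFN1_KO libraries stood at 71.0% of control in the mean (log2 fold change -0.44, SE 0.06, adjusted p = 0.000119, limma). Tpsg1, a tryptase gene whose RefSeq span overlaps that of Cacna1h, was also lower, at 0.862 ± 0.105 RPKM in PFN1_KO and 1.39 ± 0.162 RPKM in control libraries (SD, n = 4 each; adjusted p = 0.00274, limma), and was tested only through its control mean.

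Cacna1g (gene ID 12291), the T-type pore of thalamic burst firing, had 0.424, 0.555, 0.491 and 0.533 RPKM in PFN1_KO libraries 1 to 4, against 0.952, 1.13, 1.13 and 1.05 RPKM in control libraries 1 to 4. The groups did not overlap, and the mean was 46.9% of control (log2 fold change -0.46, SE 0.07, adjusted p = 0.000269, limma). Cacna1g was tested only through its control mean of 1.07 RPKM, so it had to differ in this direction. At the estimated depth these values rest on about 100.1 to 132 reads per PFN1_KO library and 243 to 319 reads per control library.

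Together the T-type genes summed to 11.3, 13.6, 13.2 and 11.7 RPKM in PFN1_KO libraries 1 to 4, against 12.5, 13.2, 13.1 and 13.4 RPKM in control libraries 1 to 4, and these sums overlapped. Cacna1i made up 41.9 ± 1.67% of the sum in PFN1_KO and 19.2 ± 0.461% in control libraries (SD, n = 4 each). Cacna1h made up 54.1 ± 1.47% in PFN1_KO and 72.6 ± 0.978% in control libraries, and Cacna1g 4.02 ± 0.384% in PFN1_KO and 8.16 ± 0.522% in control libraries. Cacna1h thus remained the leading T-type gene in every library, with Cacna1i closer behind it in PFN1_KO libraries.

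**Figure D2:**
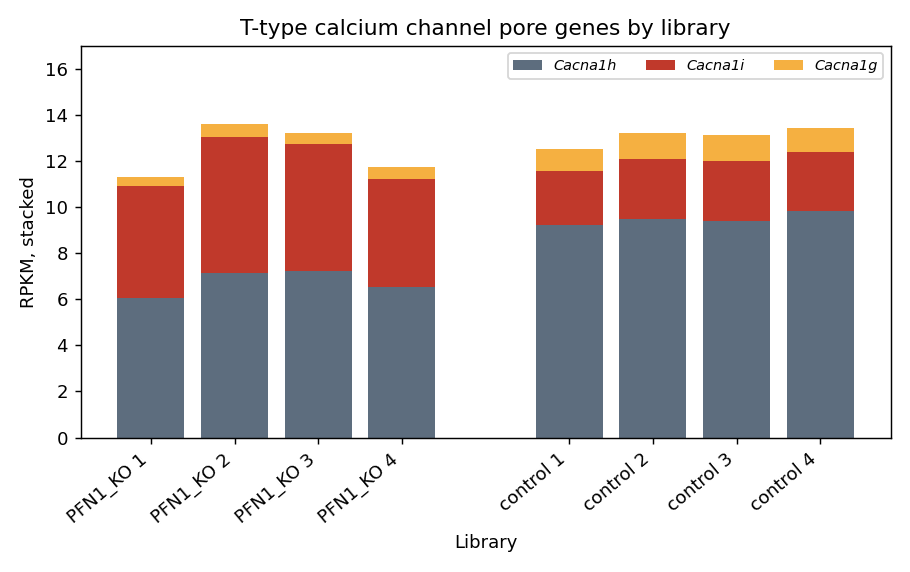
Stacked RPKM of the T-type pore genes Cacna1h, Cacna1i and Cacna1g in each library, PFN1_KO libraries on the left and control libraries on the right. The bars end at 11.3 to 13.6 RPKM in PFN1_KO and 12.5 to 13.4 RPKM in control libraries, with the Cacna1i segment larger in every PFN1_KO library.

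Cacna1b (gene ID 12287), the N-type pore of presynaptic release sites, had 6.40, 7.20, 7.45 and 6.98 RPKM in PFN1_KO libraries 1 to 4, against 3.27, 3.40, 3.37 and 4.22 RPKM in control libraries 1 to 4. Control library 4 was the highest control and still lay below every PFN1_KO library. The increase was 1.97-fold (log2 fold change 0.81, SE 0.07, adjusted p = 7.82e-06, limma). Cacna1a, the P/Q-type pore of the same presynaptic class, lay under the filter, at 0.675 RPKM in PFN1_KO and 0.870 RPKM in control libraries on average, without overlap between the groups. Of the summed level of the P/Q-, N- and R-type pores, Cacna1b held 91.2 ± 0.503% in PFN1_KO and 80.3 ± 1.46% in control libraries (SD, n = 4 each).

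Cacna1c (gene ID 12288), the L-type pore of heart, smooth muscle and neuronal cell bodies, had 7.53, 8.15, 8.11 and 8.19 RPKM in PFN1_KO libraries 1 to 4, against 5.88, 6.45, 6.09 and 6.55 RPKM in control libraries 1 to 4. No control library reached the lowest PFN1_KO library, and the increase was 1.28-fold (log2 fold change 0.31, SE 0.05, adjusted p = 0.000662, limma). Dcp1b, whose RefSeq span overlaps that of Cacna1c, was not called (adjusted p = 0.813, limma). The noncoding RNA gene 4931430N09Rik, whose span also overlaps that of Cacna1c, lay under the filter at 0.658 RPKM in PFN1_KO and 0.101 RPKM in control libraries on average. Cacna1d, the L-type pore of pacemaking neurons and chromaffin cells, was off at 0.0147 RPKM in PFN1_KO and 0.0984 RPKM in control libraries on average. Its values rest on an estimated 2.02 to 9.10 reads per PFN1_KO library and 27.3 to 36.4 reads per control library. Chdh, a gene that overlaps Cacna1d, was also off, at 0.00398 RPKM in PFN1_KO and 0.0825 RPKM in control libraries. Dcp1a, whose span also overlaps that of Cacna1d, averaged 3.19 RPKM in PFN1_KO and 3.23 RPKM in control libraries. Cacna1c held 99.8 ± 0.1004% of the L-type sum in PFN1_KO and 98.4 ± 0.156% in control libraries (SD, n = 4 each). The retinal and skeletal muscle L-type pores Cacna1f and Cacna1s and the R-type pore Cacna1e averaged at most 0.00314 RPKM in either group.

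Among accessory sodium channel subunits Scn3b (gene ID 235281), which modulates gating and cell adhesion, was on and lower in PFN1_KO libraries. It had 5.69, 7.04, 6.89 and 6.81 RPKM in PFN1_KO libraries 1 to 4, against 7.93, 9.03, 8.06 and 9.78 RPKM in control libraries 1 to 4. Control values all lay above PFN1_KO values, and the mean was 76.0% of control (log2 fold change -0.35, SE 0.08, adjusted p = 0.00336, limma). Scn2b and Scn4b, the beta chains that bind the alpha chain through a disulfide bond, were listed at 0 in all 8 libraries. 

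Cacnb3 was the leading calcium channel beta subunit, a cytoplasmic protein that carries high-voltage pores to the membrane. It had 24.3, 23.8, 23.3 and 25.5 RPKM in PFN1_KO libraries 1 to 4, against 26.8, 27.1, 28.1 and 29.6 RPKM in control libraries 1 to 4. The groups did not overlap, and the mean was 86.9% of control (log2 fold change -0.19, SE 0.05, adjusted p = 0.00478, limma). Cacnb1 averaged 4.06 ± 0.543 RPKM in PFN1_KO and 4.58 ± 0.381 RPKM in control libraries (SD, n = 4 each) and was not called (log2 fold change -0.15, 95% interval -0.33 to 0.04, adjusted p = 0.174, limma). Cacnb4 was off at 0.349 RPKM in PFN1_KO and 0.321 RPKM in control libraries, and Cacnb2, the cardiac form, at 0.0193 RPKM in PFN1_KO and 0.00294 RPKM in control libraries. Rpl19, whose RefSeq span overlaps that of Cacnb1, was not called either.

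Of the alpha2delta subunits, extracellular proteins that raise surface channel number, Cacna2d2 was on. It averaged 1.202 ± 0.194 RPKM in PFN1_KO and 1.46 ± 0.186 RPKM in control libraries (SD, n = 4 each) and was not called (log2 fold change -0.16, 95% interval -0.35 to 0.03, adjusted p = 0.144, limma). Without control library 4, which at 1.18 RPKM lay below its group, Cacna2d2 was called lower (log2 fold change -0.22, adjusted p = 0.0484, limma). Without PFN1_KO library 1, the lowest of its group at 0.931 RPKM, the log2 fold change was -0.099 (adjusted p = 0.345, limma). Without both libraries it was -0.16 (adjusted p = 0.0765, limma). In 16 of its 17 settings Cacna2d2 stayed uncalled. Cacna2d1 and Cacna2d4 averaged at most 0.0355 RPKM in either group, and Cacna2d3 was listed at 0 in all 8 libraries.

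The TARP genes that were on were Cacng7, Cacng3, Cacng4, Cacng8 and Cacng2, of which the first 3 were called lower. Cacng4 had 4.88, 4.52, 5.67 and 4.35 RPKM in PFN1_KO libraries 1 to 4, against 8.69, 8.36, 10.07 and 9.93 RPKM in control libraries 1 to 4. No value of one group reached the other, and the mean was 52.4% of control (log2 fold change -0.81, SE 0.08, adjusted p = 1.53e-05, limma). Cacng3 had 8.55, 9.996, 10.01 and 10.5 RPKM in PFN1_KO libraries 1 to 4, against 12.6, 13.8, 14.0 and 15.1 RPKM in control libraries 1 to 4. It stood at 70.2% of control without overlap (log2 fold change -0.47, SE 0.07, adjusted p = 0.000209, limma).

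Cacng7, the TARP with the highest level, averaged 20.1 ± 0.271 RPKM in PFN1_KO and 24.2 ± 1.198 RPKM in control libraries (SD, n = 4 each), again without overlap (log2 fold change -0.26, SE 0.04, adjusted p = 0.000635, limma). Cacng8 averaged 3.60 ± 0.201 RPKM in PFN1_KO and 3.37 ± 0.332 RPKM in control libraries and was not called (log2 fold change 0.08, 95% interval -0.07 to 0.23, adjusted p = 0.381, limma). Cacng2, or stargazin, the founding TARP, averaged 0.837 ± 0.0758 RPKM in PFN1_KO and 1.12 ± 0.212 RPKM in control libraries, and was tested only through its control mean. Its groups did not overlap, but it missed the threshold (log2 fold change -0.20, adjusted p = 0.0586, limma). It passed when rescaled by median of ratios (adjusted p = 0.0374, limma) or upper quartile (adjusted p = 0.041, limma). It also passed without a variance trend (adjusted p = 0.0336, limma) and without control library 4 (adjusted p = 0.044, limma). In 13 of its 17 settings Cacng2 stayed uncalled. Without control library 3, its highest control at 1.44 RPKM, the log2 fold change was -0.14 (adjusted p = 0.168, limma). Without control library 4 and PFN1_KO library 1 together it was -0.23 (adjusted p = 0.0617, limma). Cacng5 was off at 0.0885 RPKM in PFN1_KO and 0.265 RPKM in control libraries, and the muscle channel gamma genes Cacng1 and Cacng6 averaged at most 0.0365 RPKM in either group.

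**Figure D3:**
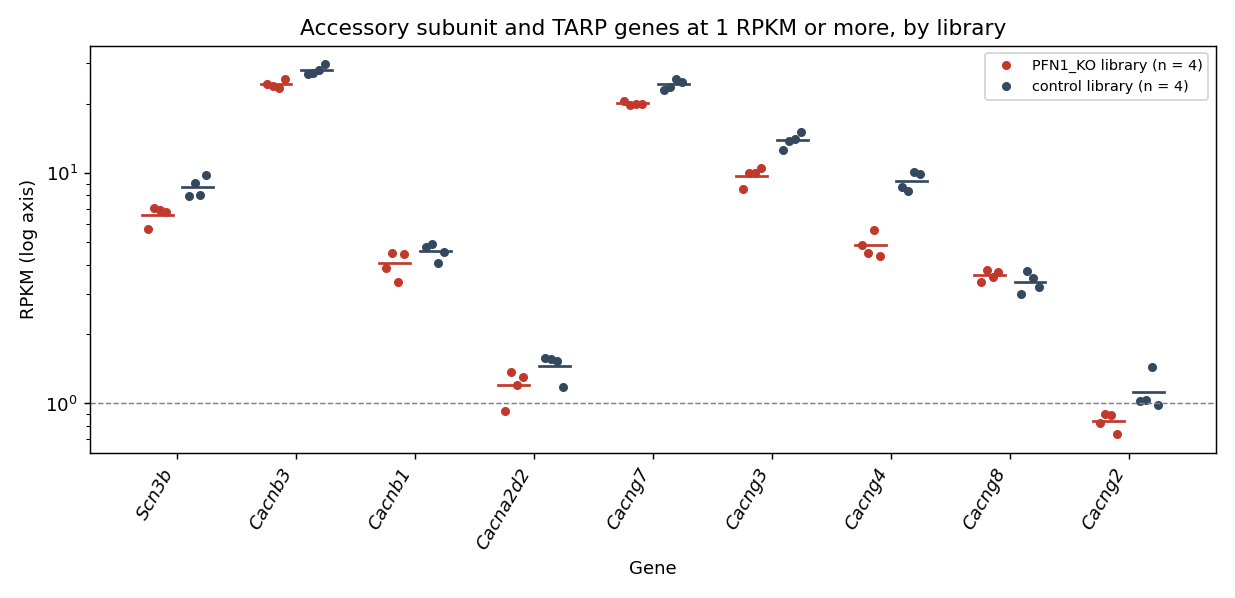
RPKM of 9 accessory subunit and TARP genes that were on, in each library on a log axis, PFN1_KO (red) left of control (dark); points are libraries, short lines are group means and the dashed line is 1 RPKM. The groups stand apart for Scn3b, Cacnb3, Cacng7, Cacng3 and Cacng4, are close without overlap for Cacng2, and overlap for Cacnb1, Cacna2d2 and Cacng8.

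Of the 9 pore genes that were on, 4 lie on chromosome 2 in RefSeq: Scn9a, Scn2a1, Scn3a and Cacna1b. Genes of chromosome 2 were shifted upward as a whole, with a median log2 fold change of 0.26 over 947 genes tested, of which 649 (68.5%) were called higher and 36 lower. After subtraction of that median the log2 fold change was 0.55 for Cacna1b, 0.50 for Scn9a, 0.29 for Scn2a1 and -0.04 for Scn3a. The increases of Cacna1i, Scn8a and Cacna1c and the decreases of Cacna1h and Cacna1g belong to genes of other chromosomes. After subtraction of the median of their own chromosomes, the log2 fold change was 0.77 for Cacna1i, 0.18 for Scn8a and 0.23 for Cacna1c. It was -0.41 for Cacna1h and -0.45 for Cacna1g. None of the accessory genes that were on lies on chromosome 2. The part of the chromosome 2 shift in the higher PFN1_KO means of the 4 chromosome 2 pore genes, of which Scn3a was not called, was not tested.

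**Figure D4:**
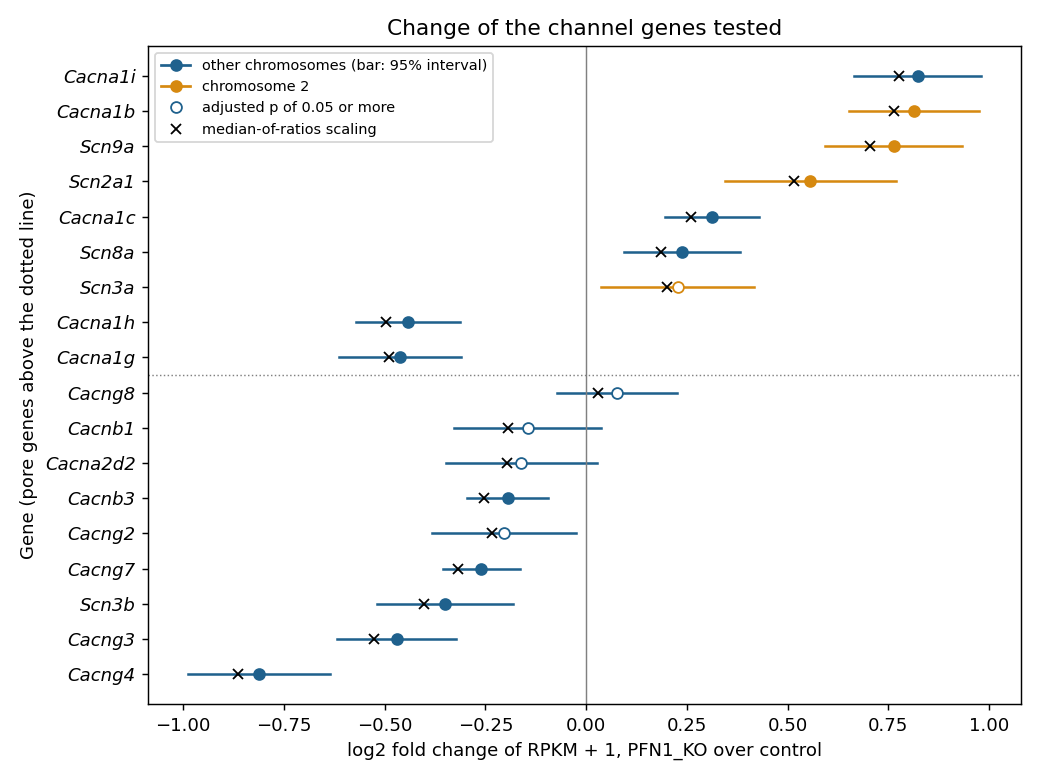
log2 fold change of RPKM + 1 (PFN1_KO over control) for 18 of the channel genes tested, pore genes above the dotted line and accessory genes below it. Points are the fit with 95% intervals, filled where the adjusted p is under 0.05, orange for chromosome 2, and crosses give the value with median-of-ratios scaling. Of the pore genes drawn, all but Cacna1h and Cacna1g lie above 0, and of the accessory genes drawn, all but Cacng8 lie below 0, under both scalings.

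Around the threshold, the genes just inside were Scn3a, Cacna1g, Cacng2 and Cacna2d2, at 1.03 to 1.46 RPKM in the higher group. Just outside was Cacna1a, at 0.870 RPKM in control libraries. With the filter at 0.5 RPKM 7 channel genes were called higher and 10 lower, and with no filter 6 were called higher and 12 lower. Over all genes 3725 were called higher and 1851 lower at 0.5 RPKM, and 3911 higher and 1889 lower with no filter. The numbers of genes tested at these filters are not given here, so the channel counts are a description. With no filter the genes added included Cacna1a (adjusted p = 0.00546), Cacng5 (adjusted p = 0.00555) and Cacna1d (adjusted p = 0.00022), all called lower by limma. The authors' deposited table calls 9 of the 40 genes higher and 13 lower, 16 of them among those on here. It gives the same direction for all 14 genes called here, from the same libraries. The share of all genes that it calls is not given here, so these counts are a description. Of its higher calls, Cacnb2 rests on an estimated 0 to 6.91 reads per library and Scn10a on 0 to 3.91. In the authors' deposited table Cacna1d has a log2 fold change of -2.69 (adjusted p = 2.41e-16) and Cacng5 one of -1.56 (adjusted p = 1.12e-06).

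Of 18 genes for proteins that bind or cluster with sodium channels 15 were tested, of which 2 were higher, 3 lower and 10 not called (median log2 fold change 0.03, beside 0.06 over all genes tested, of which 30.4% were higher and 15.5% lower). Rescaling by median of ratios gave 1 higher and 5 lower, beside 24.0% higher and 23.7% lower of all genes tested. Without PFN1_KO library 3 or 4 there was 1 higher. Over all genes these settings gave 3160 and 2898 higher, against 3489 in the main fit. Fgf13, an intracellular factor that shifts sodium channel inactivation, had 0.802, 0.973, 1.16 and 1.15 RPKM in PFN1_KO libraries 1 to 4, against 0.288, 0.256, 0.125 and 0.327 RPKM in control libraries 1 to 4. It rose 4.10-fold (log2 fold change 0.69, adjusted p = 7.35e-05, limma), was tested only through its PFN1_KO mean of 1.02 RPKM, and fell under the filter with median-of-ratios scaling. Nfasc and Cntn1, axonal adhesion molecules of channel clusters, had PFN1_KO means at 69.2% and 55.1% of control and were called lower (adjusted p at most 0.00277, limma). Cntn1 was tested only through its control mean of 1.015 RPKM, so it had to differ. Ank3, the ankyrin that anchors sodium channels at the initial segment, averaged 11.3 RPKM in PFN1_KO and 10.96 RPKM in control libraries and was not called (adjusted p = 0.689, limma).

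Of 23 genes whose products bind or regulate calcium channels 15 were tested, of which 7 were higher, 1 lower and 7 were not called (median log2 fold change 0.15), beside 30.4% higher and 15.5% lower of all genes tested. Rescaling by median of ratios gave 3 higher and 2 lower, beside 24.0% higher and 23.7% lower of all genes tested. Without PFN1_KO library 2, PFN1_KO library 4 or control library 3 there were 4 higher. Over all genes these settings gave 3176, 2898 and 2934 higher, against 3489 in the main fit. Snap25, the SNARE that N-type channels bind at release sites, averaged 76.5 ± 2.87 RPKM in PFN1_KO and 50.4 ± 2.60 RPKM in control libraries (SD, n = 4 each; log2 fold change 0.59, adjusted p = 2.16e-06, limma). Rims2, an active zone scaffold that tethers the pores, averaged 23.3 ± 1.68 RPKM in PFN1_KO and 16.4 ± 1.77 RPKM in control libraries (log2 fold change 0.49, adjusted p = 0.000261, limma). Ncs1, a neuronal calcium sensor, rose 1.198-fold and Bsn, the gene of the active zone protein bassoon, stood at 83.1% of control (adjusted p = 0.0229, limma). The call of Bsn was lost without PFN1_KO library 1, control library 2 or control library 3, where 0 genes of the list were called lower. Without control library 1 there were 2 lower. Over all genes, leaving out 1 library at a time gave 1447 to 1657 lower, against 1772 in the main fit. Snap25 and Ncs1 lie on chromosome 2, where the median log2 fold change was 0.26. After subtraction of that median the log2 fold change was 0.33 for Snap25 and -0.02 for Ncs1.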

How the data were processed

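RNA-seq of 8 mouse CAD cell libraries was used, 4 PFN1_KO and 4 control, grouped by their titles. Stranded libraries were made after ribosomal RNA depletion, per the labels' protocols. The deposited table gives the authors' RPKM per gene and library, group RPKM values, a log2 fold change, a mean log2 CPM, and a p-value and adjusted p-value. Tools named by the submitters' processing notes are Bowtie, TopHat, RSEM, CASAVA and edgeR, without roles. Those notes also list the human build hg19, while gene numbers and symbols are mouse, so the files give no usable coordinates. How the counting divided reads between related channel genes is not given in the sources used here. RefSeq (GRCm38.p6) held 22955 of the gene numbers and was used for chromosomes, overlapping spans and promoters, which carry RefSeq's coordinates.

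The 11465 genes that averaged 1 RPKM or more in either group were fitted by group on log2(RPKM + 1) in R 4.3.3 (limma 3.58.1, trended variance), with two-sided tests, and p-values were adjusted by Benjamini-Hochberg over all of them. The fit was also run on simulated data with a fixed spread and far fewer changed genes than were called here. Those settings differ from these data, so nothing is concluded from that run. The channel genes, the partner lists and the tests were chosen with earlier results of these data known. A few genes are not reported here by name, though the counts and sums include them. The other channel genes are named; of each partner list the called members with the largest changes, at most 4, are given, and others named there (Ank3, Unc80, Nalcn, Hcn2, Hcn4 and Itpr1) were chosen after their values were seen. Depth was estimated from the smallest steps of low RPKM values and from the authors' mean log2 CPM, on the assumption that the authors used edgeR's default prior count. Intervals cover the spread between libraries. Alternatives were other pseudocounts, filters, scalings, a replicate block, no trend, and leaving out libraries; without control library 4 and PFN1_KO library 1 together was chosen after seeing the data.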

Additional observations from a re-analysis of the deposited data

Results flagged for a closer look

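In 72 groups of 4 libraries (the 19 channel genes that were on, Pfn1 and 16 partner genes, in each group), 9 had 1 library far from the other 3; chance flags about 1 group in 20. PFN1_KO library 1 lay below its group for Cacna1c, at 7.53 RPKM against 8.11 to 8.19 RPKM in the other PFN1_KO libraries, and for Bsn, at 2.19 RPKM against 2.52 to 2.56 RPKM. Control library 4 lay above its group for Cacna1b, at 4.22 RPKM against 3.27 to 3.40 RPKM in the other control libraries, for Scn2a1, at 2.01 RPKM against 1.456 to 1.503 RPKM, and for Catsper2, a sperm-type cation channel gene, at 1.11 RPKM against 0.683 to 0.695 RPKM. Control library 4 lay below its group for Cacna2d2, at 1.18 RPKM against 1.53 to 1.57 RPKM. Control library 1 lay below its group for Cacna1i, at 2.33 RPKM against 2.56 to 2.58 RPKM, and for Itpr3, at 1.04 RPKM against 1.15 to 1.17 RPKM. Control library 3 lay above its group for Cacng2, at 1.44 RPKM against 0.989 to 1.03 RPKM. Control library 4 and PFN1_KO library 1 are also the libraries that lay apart over all genes.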

How the results depend on the processing

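Each of the 14 channel genes called kept its direction and its call in all 17 settings tried for it. Calls were gained for Scn3a, Cacng2 and Cacna2d2 in 10 cases in all. Over all genes 2709 were called lower with median-of-ratios scaling, against 1772 as deposited. That scaling gave 1 higher and 5 lower among sodium channel partners, and 3 higher and 2 lower among calcium channel partners. Upper-quartile scaling gave 4 higher and 2 lower among calcium channel partners, beside 2933 higher and 2483 lower over all genes. Calcium channel partners called lower numbered 2 with no filter and 2 with the filter at 0.5 RPKM, against 1. Without control library 4 and PFN1_KO library 1, 4 sodium channel partners were higher, 0 calcium channel partners were lower, and 7 channel genes were higher and 8 lower. Over all genes that setting gave 4415 higher and 1572 lower, against 3489 higher and 1772 lower in the main fit. Leaving out 1 library at a time gave 1 to 3 sodium channel partners higher, 4 to 7 calcium channel partners higher and 0 to 2 lower. Over all genes it gave 2888 to 3941 higher and 1447 to 1657 lower. The numbers of genes tested in these settings are not given here, so the partner and channel counts are a description. The cause of these shifts was not tested. Same-numbered libraries did not deviate together (correlations of 0.18, 0.02, -0.19 and -0.08 for numbers 1 to 4), so the numbers were not taken as pairs. With a replicate block 5205 genes were called, and 6 channel genes were higher and 8 lower, as without it. Channel genes listed at or near 0 rest on few reads, and RPKM alone gives no counting error for them.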

Other observations

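Of 16 genes for related cation channels and their subunits 9 were tested, of which 6 were called higher, 1 lower and 2 not (limma, median log2 fold change 0.26, beside 0.06 over all genes tested). Of all genes tested 30.4% were called higher and 15.5% lower. Rescaling by median of ratios gave 5 higher and 1 lower, beside 24.0% higher and 23.7% lower of all genes tested. Unc79 and Unc80 encode subunits of the sodium leak channel. Unc79 averaged 4.87 ± 0.578 RPKM in PFN1_KO and 3.52 ± 0.442 RPKM in control libraries (SD, n = 4 each; adjusted p = 0.00413, limma), while Nalcn, the pore of that channel, was off at 0.0762 RPKM in PFN1_KO and 0.0745 RPKM in control libraries. Hcn3 and Hcn2, pacemaker channel genes, rose and Hcn4 fell, the last to 3.70 RPKM in PFN1_KO against 4.58 RPKM in control libraries (adjusted p = 0.00952, limma). The call of Hcn2 was lost with median-of-ratios scaling. Tpcn2, a lysosomal channel gene, rose 1.55-fold. The groups overlapped for Tpcn2 and for Unc79. Catsper2, on chromosome 2, averaged 1.42 RPKM in PFN1_KO and 0.792 RPKM in control libraries and was tested only through its PFN1_KO mean.

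Of 22 genes of calcium stores and clearance 17 were tested, of which 4 were higher, 6 lower and 7 not called (median log2 fold change -0.05), against the same shares of all genes. Rescaling by median of ratios gave 3 higher and 7 lower, beside 24.0% higher and 23.7% lower of all genes tested. The release channel gene Itpr3 averaged 0.536 ± 0.0613 RPKM in PFN1_KO and 1.13 ± 0.0605 RPKM in control libraries (SD, n = 4 each; log2 fold change -0.47, adjusted p = 0.000193, limma), whereas Ryr2 and Itpr1, also release channel genes, rose 1.34-fold and 1.29-fold. Itpr3 was tested only through its control mean, and the groups of Ryr2 overlapped. The plasma membrane calcium pump gene Atp2b4 fell to 74.9% of control (adjusted p = 0.00111, limma), and Orai3, a store-operated channel gene, rose 1.38-fold (adjusted p = 0.00155, limma).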
